A study of Arabidopsis thaliana with 4 samples.

Results

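The 10 genes described here encode the Arabidopsis thaliana enzymes that turn tryptophan into indole glucosinolates and into the phytoalexin camalexin. They were chosen by locus as CYP79B2, CYP79B3, CYP83B1, SUR1, UGT74B1, SOT16, CYP81F2, CYP71A12, CYP71A13 and PAD3, out of 25382 loci with a probe matched through its RefSeq transcript accession. All 10 had at least 1 probe, CYP79B2 and CYP71A13 had 2, and all 10 passed the filter on dim probes, CYP71A13 through AtC3H17 OX alone.

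Indole glucosinolates are sulfur-rich glucosides that are stored intact and broken down to toxic products by thioglucosidases when tissue is damaged or attacked. Camalexin is an indole compound that Arabidopsis makes anew upon infection or oxidative stress. Both start from indole-3-acetaldoxime, which CYP79B2 and CYP79B3 make from tryptophan. CYP83B1 directs this aldoxime towards glucosinolates, whereas CYP71A13 and its close relative CYP71A12 convert it towards camalexin and related indole compounds.

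Whole seedlings of ecotype Col-0 were compared 14 days after germination. The plants were untreated, and a short day (8 h light, 16 h dark) and a temperature of 22 °C were used on agar plates with sucrose. WT (1 array) is the wild type, AtC3H17 OX (2 arrays) overexpresses AtC3H17, a gene for a CCCH zinc finger protein, and atc3h17-1 (1 array) carries a mutant allele of that gene by its name. The labels give neither the promoter that drives the overexpression, the number of lines, nor the lesion in atc3h17-1.

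One-colour Agilent arrays with 43603 distinct probes were used, all 4 on 1 slide in 1 scan. Their signals had a 75th percentile between 3273 and 3487, and 72.0% to 74.5% of spots were well above background. The pair of AtC3H17 OX arrays had a median absolute log2 difference of 0.0322 (30476 probes). As a robust SD per array this was 0.0338, below the median SD of repeated spots on either array (0.0492 and 0.0409). The SD of repeated spots over all repeated probes was 0.0941 and 0.0664. These SDs, and the spot SDs below, rest on only 16 repeated probes. For genes with several probes, what 1 probe showed between these arrays was unrelated to what another showed (r = 0.00135, 5726 genes), whereas pairs of different genotypes had r between 0.54 and 0.63, a description across genes. They were therefore averaged and counted as 1 sample. With 1 sample per genotype there was no spread between plants, no replicate check and no p-value, and every difference below describes these samples. A gene is called higher or lower where it differed at least 2-fold, on both AtC3H17 OX arrays where that line was compared. Errors given as ± are Agilent's error estimate for the spots and do not cover plants. Repeated spots varied most on the WT array, with an SD of 0.203, which gave a difference from WT a spot SD of 0.211 for AtC3H17 OX and 0.212 for atc3h17-1. A difference between both lines had a spot SD of 0.0856.

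The targeted gene AtC3H17 (AT2G02160) was read with 3 probes as a check of the labels. A_84_P803253 was 4.57-fold above WT in AtC3H17 OX, and at least 42.7-fold below it in atc3h17-1, where it did not exceed background. A_84_P221496 was at 0.981-fold in AtC3H17 OX, while in atc3h17-1 its signal was background only, which gives a bound of at least 502-fold below WT. A_84_P847169 was at 5.60-fold in AtC3H17 OX and at 1.41-fold in atc3h17-1, so the probes of this gene disagreed in both lines. The labelled tissue was checked with markers of root and shoot. All 9 shoot markers, such as RBCS1A of Rubisco, were well above background on every array, and so were 14 of the 20 root markers. PLT2 and IRT1 did not pass the filter. Of the 18 root markers kept, 2 were called lower and 0 higher in AtC3H17 OX (median -0.52, where 2.78% of all 20461 genes kept were lower). In atc3h17-1, 12 were called lower and 1 higher (median -1.81, where 4.24% and 4.34% of all genes were). In each line 2 of the 18 lay above zero. Examples of those below are the Casparian strip gene CASP1, at -0.77 and -2.47, and the root hair regulator RSL4, at -1.95 and -2.29. Above zero were NRT2.1 at 0.67 and LRX1 at 0.21 in AtC3H17 OX, and SCR at 0.06 in atc3h17-1. PLT1, dim in WT and AtC3H17 OX, was at least 3.06-fold above WT in atc3h17-1. The summed level of the 18 root markers, in units of each array's 75th percentile, was 4.91 in WT, 3.26 and 3.13 on the AtC3H17 OX arrays and 1.77 in atc3h17-1. The shoot markers had medians of 0.17 and 0.04. In whole seedlings, fewer cells of a type and less RNA per cell cannot be told apart, and the part of root content in the results was not tested.

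In AtC3H17 OX the camalexin genes PAD3 and CYP71A12 were 7.97-fold and 3.90-fold above WT. CYP71A13, dim in WT, was at least 2.06-fold above it, a call lost with another background correction. At the entry of the pathway CYP79B3 was 2.06-fold lower, a call at the edge of the threshold, and CYP79B2 was at 1.88-fold below WT and not called. Of the 10 genes 4 were called, where 7.15% of all 20461 genes kept were. Among them 3 were higher, where 4.37% of all genes were, and 1 was lower, where 2.78% were. CYP71A13, counted among the 3, passed the filter only through AtC3H17 OX, where it is high. A filter that asks all 4 arrays to detect a probe leaves it out. There 2 of 9 genes were higher and 1 lower, where 591 and 349 of 19178 genes were. The split over all 20461 genes kept was 894 higher and 568 lower, and 859 and 286 with normexp, a background correction that compresses dim spots. The median over the 10 genes was -0.05, beside -0.03 over all genes kept. It ranged from -0.17 with normexp to 0.01 with quantile normalization, so its sign was not settled.

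**Figure D1:**
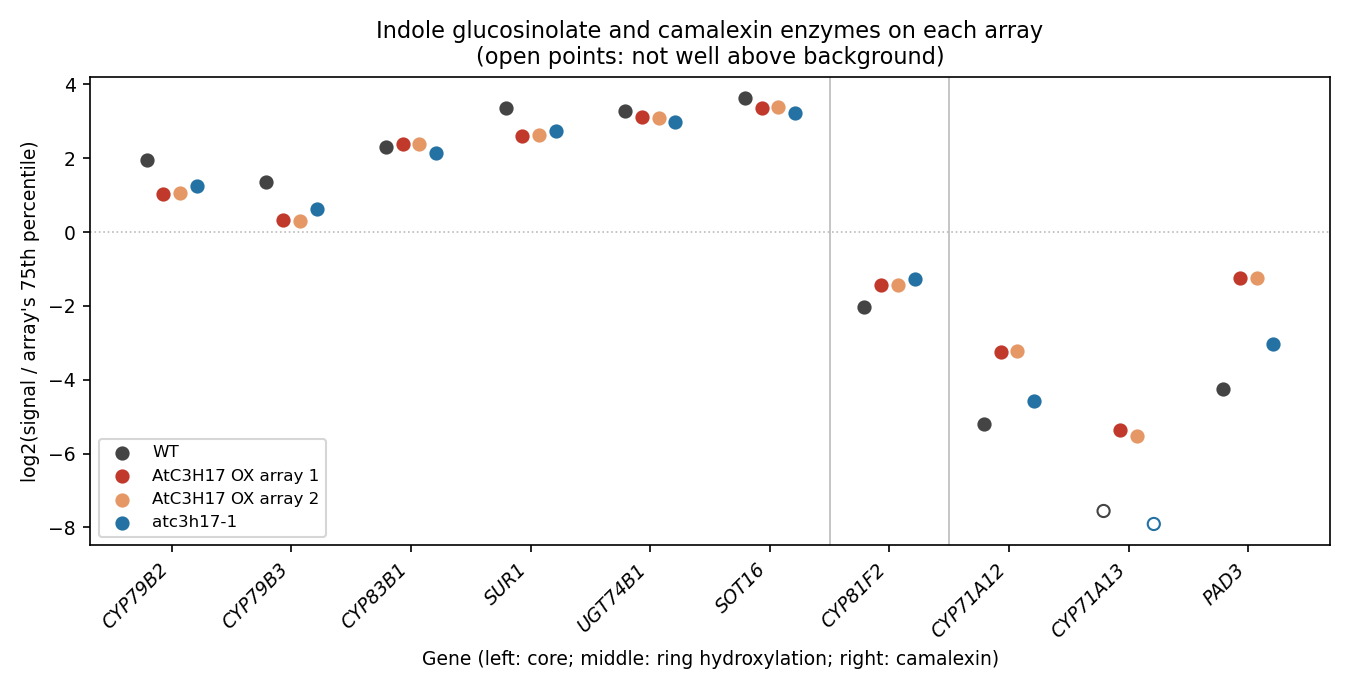
Level of each gene on each array, as log2 of the signal relative to the array's 75th percentile; each point is 1 array, a gene with 2 probes is shown as their mean, and open points were not well above background. The 4 arrays can be compared within a gene, not between genes: PAD3 and CYP71A12 are highest on both AtC3H17 OX arrays, whereas CYP79B2, CYP79B3 and SUR1 are highest in WT.

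PAD3 (AT3G26830), the cytochrome P450 CYP71B15 that carries out the last step of camalexin synthesis, had a processed signal of 183 in WT, 1427 and 1420 on the AtC3H17 OX arrays and 399 in atc3h17-1. Both AtC3H17 OX arrays were thus above atc3h17-1, and atc3h17-1 was above WT. The difference from WT was 2.99 ± 0.20 on the log2 scale in AtC3H17 OX and 1.21 ± 0.23 in atc3h17-1. In AtC3H17 OX it ranked 86 from the top among the 20461 genes, and in atc3h17-1 it ranked 680. PAD3 was the only one of the 10 genes called in both lines against WT. These comparisons share the WT array, where the PAD3 signal was lowest. Without the WT array, AtC3H17 OX was 3.44-fold above atc3h17-1 (1.78 ± 0.18, rank 164).

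CYP71A12 (AT2G30750), which converts indole-3-acetaldoxime to indole-3-acetonitrile, had signals of 94.3 in WT, 356 and 360 on the AtC3H17 OX arrays and 137 in atc3h17-1. The order of the genotypes was that of PAD3. In AtC3H17 OX the difference from WT was 1.96 ± 0.22 (rank 288 from the top). In atc3h17-1 it was 0.63 ± 0.25, or 1.55-fold, and did not reach the call. With normexp these differences were 1.40 and 0.36. AtC3H17 OX exceeded atc3h17-1 by 2.51-fold.

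CYP71A13 (AT2G30770), the enzyme chiefly linked to the same conversion in camalexin synthesis, was well above background in AtC3H17 OX alone. Its probe A_84_P15382 read 90.0 and 80.7 on the AtC3H17 OX arrays, against 18.5 in WT and 9.87 in atc3h17-1. Its other probe, A_84_P857638, read 75.9 and 66.2, against 18.6 and 18.9. The lowest signal well above background was 38.8 in WT and lay near it in atc3h17-1, so only a bound can be given. The bound sets the AtC3H17 OX mean against the higher of each dim signal and that lowest signal. It was at least 2.06-fold above WT and at least 1.97-fold above atc3h17-1, and no order between WT and atc3h17-1 can be read. With normexp the measured difference from WT was 1.06 and no longer at least 2-fold on both arrays. CYP71A13 entered the count of genes kept only through AtC3H17 OX. CYP71A12 and CYP71A13 are closely related genes, and whether their probes bind each other's transcript was not tested.

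**Figure D2:**
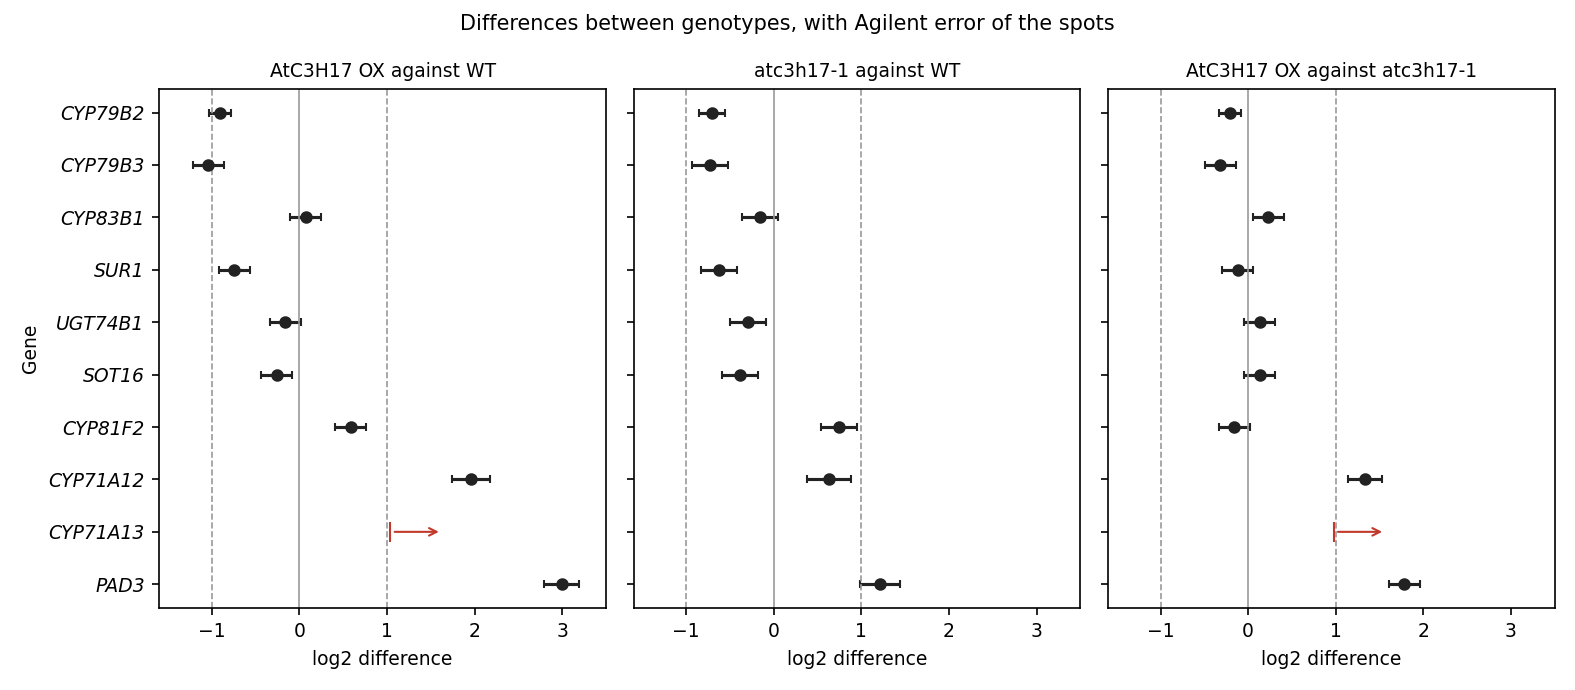
Log2 difference of each gene for AtC3H17 OX against WT, atc3h17-1 against WT and AtC3H17 OX against atc3h17-1; points are measured differences, bars are Agilent's error estimate of the spots, arrows start at a lower bound and dashed lines mark 2-fold. CYP71A13 has no point in the middle panel, since neither array was well above background. PAD3 lies beyond 2-fold in every panel, and CYP79B2 and CYP79B3 lie near the lower line in the left panel and at -0.21 and -0.32 in the right one.

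CYP79B2 (AT4G39950) gave signals of 11595 in WT, 6001 and 6080 on the AtC3H17 OX arrays and 6673 in atc3h17-1 with probe A_84_P20522. Its second probe, A_84_P798815, gave 15822, 8100, 8208 and 9128 in the same order, and both probes showed WT highest. Over its probes the difference from WT was -0.91 ± 0.12 in AtC3H17 OX and -0.70 ± 0.14 in atc3h17-1. The probes agreed closely, at -0.90 and -0.92 in AtC3H17 OX and at -0.71 and -0.70 in atc3h17-1.

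CYP79B3 (AT2G22330), which carries out the same step, had signals of 8905 in WT, 4247 and 4179 on the AtC3H17 OX arrays and 5060 in atc3h17-1. WT was again highest, and atc3h17-1 lay between. The difference from WT was -1.04 ± 0.18 in AtC3H17 OX and -0.72 ± 0.20 in atc3h17-1. CYP79B3 at 2.06-fold lower was just inside the 2-fold line and CYP79B2 at 1.88-fold lower just outside it. The call of CYP79B3 was lost (-0.99) once a trend over the array surface was removed. Between the lines, AtC3H17 OX minus atc3h17-1 was -0.21 ± 0.12 for CYP79B2 and -0.32 ± 0.18 for CYP79B3. Of the 18 root markers, 15 were above and 3 below zero in that comparison (median 1.13), and their part in the differences of CYP79B2 and CYP79B3 was not tested.

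CYP83B1 (AT4G31500) oxidises indole-3-acetaldoxime and so commits it to glucosinolates. Its signals were 17296 in WT, 17815 and 17593 on the AtC3H17 OX arrays and 14573 in atc3h17-1. The difference from WT was 0.07 ± 0.18 in AtC3H17 OX and -0.16 ± 0.20 in atc3h17-1, both within the spot SD of such a difference. AtC3H17 OX was 1.17-fold above atc3h17-1 (0.23 ± 0.18).

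SUR1 (AT2G20610) is the C-S lyase that frees the thiohydroximate, a step shared by indole and aliphatic glucosinolates. It had signals of 35894 in WT, 20870 and 20818 on the AtC3H17 OX arrays and 21843 in atc3h17-1. Both lines were below WT, by 1.68-fold in AtC3H17 OX (-0.75 ± 0.18) and by 1.54-fold in atc3h17-1 (-0.63 ± 0.20). With the surface trend removed these differences were -0.56 and -0.48, and both rest on the same WT array. The lines differed from each other by -0.12 ± 0.18.

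The final core steps differed less. UGT74B1 (AT1G24100), the glucosyltransferase that adds the sugar, had signals of 33605 in WT, 29486 and 29007 on the AtC3H17 OX arrays and 25694 in atc3h17-1. SOT16 (AT1G74100), a sulfotransferase that completes the indole glucosinolate core, had signals of 43122, 34991, 35327 and 30905 in the same order. For both genes WT read highest and atc3h17-1 lowest. AtC3H17 OX exceeded atc3h17-1 by only 0.13 ± 0.18 for each gene, which is within that error. UGT74B1 differed from WT by -0.16 ± 0.18 and -0.30 ± 0.20, and SOT16 by -0.26 ± 0.18 and -0.39 ± 0.20, for AtC3H17 OX and atc3h17-1. With normexp UGT74B1 was at -0.39 and -0.53.

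CYP81F2 (AT5G57220) hydroxylates the indole ring of a finished glucosinolate, a step needed for glucosinolate-based defence against fungi. It had signals of 861 in WT, 1264 and 1256 on the AtC3H17 OX arrays and 1355 in atc3h17-1. Unlike the core genes, it was lowest in WT. It was 1.50-fold higher in AtC3H17 OX (0.59 ± 0.18) and 1.68-fold higher in atc3h17-1 (0.75 ± 0.20). The lines differed from each other by -0.16 ± 0.18.

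In atc3h17-1, 1 of the 10 genes was called higher than WT, PAD3, where 4.34% of all genes were, and 0 were called lower, where 4.24% were (8.59% in either direction). Over all genes 889 were higher and 868 lower, and 815 and 424 with normexp. The median over the 10 genes was -0.32, beside -0.02 over all genes kept. It rests in part on CYP71A13, which was not above background in WT or atc3h17-1. Over the 9 genes detected on all 4 arrays it was -0.30, and with the brightest probe alone -0.23. At 1.5-fold, PAD3, CYP81F2 and CYP71A12 were higher and CYP79B2, CYP79B3 and SUR1 lower in atc3h17-1, where 8.89% and 8.65% of all genes were (17.5% in either direction). At 1.5-fold AtC3H17 OX had the same genes on each side, with CYP71A13 added to those higher, where 10.1% and 9.69% of all genes were (19.8% in either direction). Some of these genes dropped below 1.5-fold under other processing. With normexp these were CYP81F2 in both lines (0.44 and 0.56) and CYP71A12 in atc3h17-1 (0.36). With the surface trend removed it was SUR1 in both lines (-0.56 and -0.48). With quantile normalization these were CYP81F2 in AtC3H17 OX (0.57) and SUR1 in atc3h17-1 (-0.56). Both comparisons use the same WT array, so these lists are not independent of each other.

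The direct comparison of AtC3H17 OX with atc3h17-1 does not use the WT array. There 3 of the 10 genes were called higher, PAD3, CYP71A12 and CYP71A13, where 2.8% of all genes were, and 0 were called lower, where 1.66% were (4.46% in either direction). At 1.5-fold the counts were again 3 and 0, where 6.3% and 3.45% of all genes were (9.76% in either direction). With CYP71A13 at its bound 2 were called. Under the filter that asks all 4 arrays to detect a probe, 2 of 9 genes were higher and 0 lower, where 319 and 90 of 19178 genes were. The other 7 genes lay between -0.32 and 0.23.

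**Figure D3:**
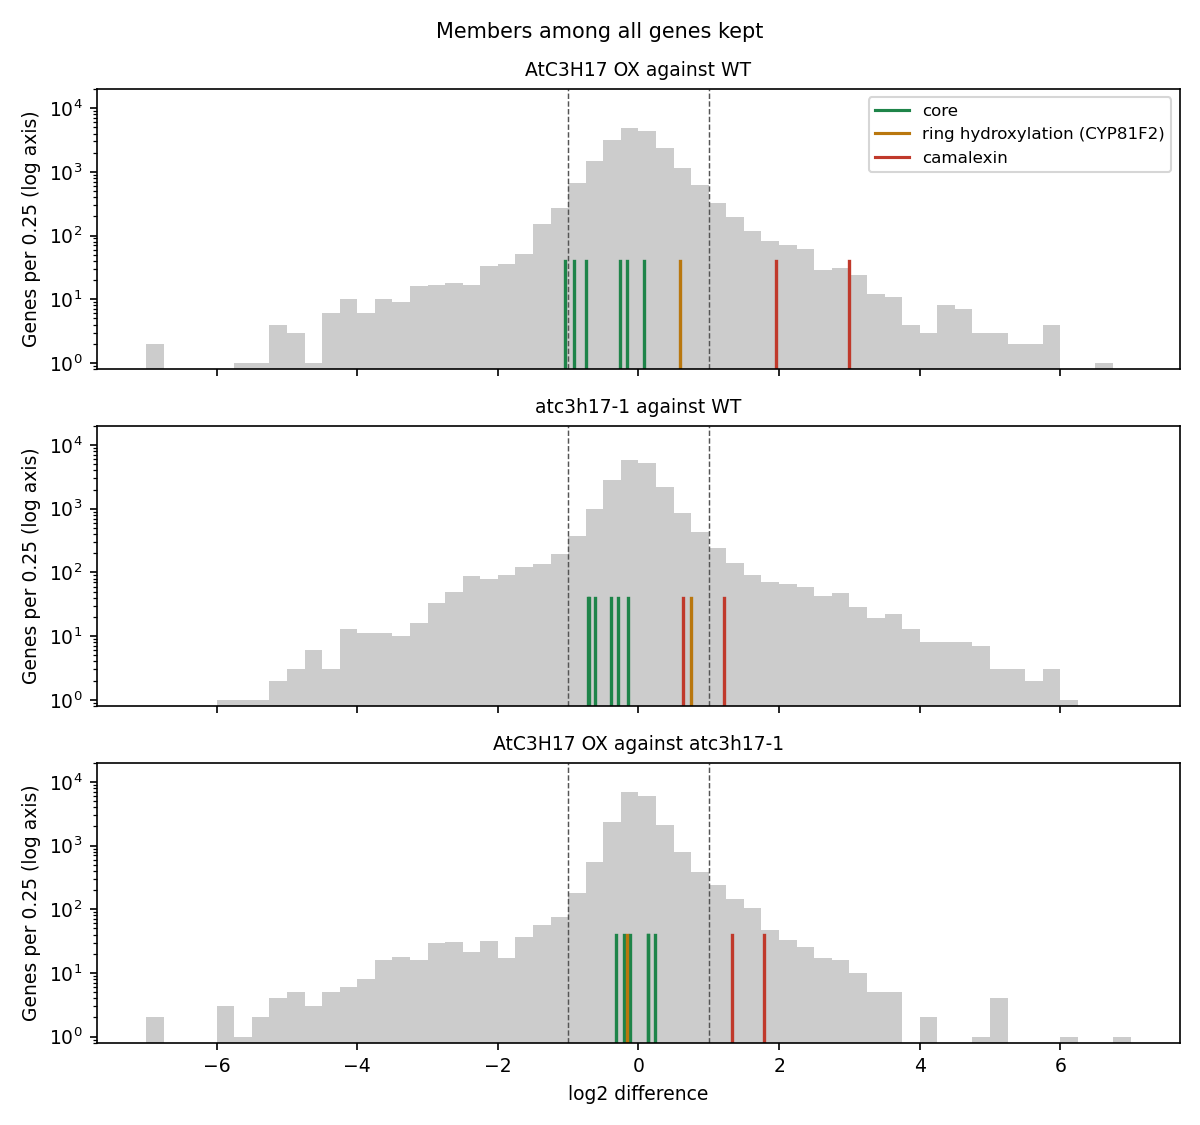
Histograms of the log2 difference over all 20461 genes kept (grey, gene counts on a log axis, values beyond the axis placed in the last bin), with the genes of the pathway as coloured lines and dashed lines at 2-fold; CYP71A13 is left out where it has only a bound or no level. Core genes lie at or below the centre in both comparisons with WT, and PAD3 and CYP71A12 lie on the right in each panel. In AtC3H17 OX against atc3h17-1 the core genes lie from -0.32 to 0.23.

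Genes around these enzymes were described from lists of the pathway, and their counts stand beside 4.37% higher and 2.78% lower over all genes in AtC3H17 OX, and 4.34% and 4.24% in atc3h17-1. All 11 genes of tryptophan supply were kept, and 0 were called in either line against WT. Their median was -0.30 in AtC3H17 OX and -0.25 in atc3h17-1, and all 11 were below zero in AtC3H17 OX, where 10853 of all 20461 genes were. ASA1, the regulated subunit of anthranilate synthase, was at -0.54 ± 0.18 and -0.34 ± 0.20. TSB1, tryptophan synthase beta, was at -0.35 ± 0.18 and -0.25 ± 0.20. The isomerases PAI1, PAI2 and PAI3, similar copies whose signals may mix, were at -0.39, -0.70 and -0.14 in AtC3H17 OX and at -0.53, -0.45 and -0.37 in atc3h17-1. ASB1, another anthranilate synthase subunit, was at -0.50 in AtC3H17 OX and 0.77 in atc3h17-1.

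Of 13 other genes that synthesise or modify indole glucosinolates and camalexin or provide their sulfur, 2 were called higher and 1 lower in AtC3H17 OX, where 4.37% and 2.78% of all genes were, and 0 in atc3h17-1, where 8.59% were in either direction. The median was -0.13 in AtC3H17 OX and -0.24 in atc3h17-1. GSTF6, a glutathione S-transferase linked to camalexin, was at 1.12 ± 0.13 in AtC3H17 OX and 0.38 ± 0.14 in atc3h17-1. CYP81F1, a relative of CYP81F2, was at 1.07 ± 0.14 and 0.81 ± 0.16. The adenylylsulfate kinases that supply activated sulfate to sulfotransferases were below WT, APK2 at -1.26 ± 0.18 and -0.69 ± 0.20 and APK1 at -0.76 ± 0.12 and -0.68 ± 0.14. GSTF9 was at -0.77 and -0.43. The indole methyltransferase IGMT1, which acts after CYP81F enzymes, was at -0.08 and -0.55.

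Of 12 genes for indole breakdown and transport 11 were kept, with medians of 0.29 and 0.06. FOX1, an oxidase of the cyanogenic indole branch, was at 1.47 ± 0.19 in AtC3H17 OX, the 1 call there, and at 0.57 ± 0.22 in atc3h17-1. The nitrilases NIT1, NIT2 and NIT3 were at 0.79, 0.96 and 0.56 in AtC3H17 OX and at 0.20, 0.27 and 0.15 in atc3h17-1. NIT1, NIT2 and NIT3 are related genes, and whether their signals mix was not tested. PEN2, the thioglucosidase that acts on CYP81F2 products, was at -0.03 and -0.10, and the transporter PEN3 at 0.16 and -0.00. CYP71A18 was well above background in WT but on only 1 of the AtC3H17 OX arrays, which differed by 2.51, and not in atc3h17-1, where it was at least 1.47-fold lower.

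**Figure D4:**
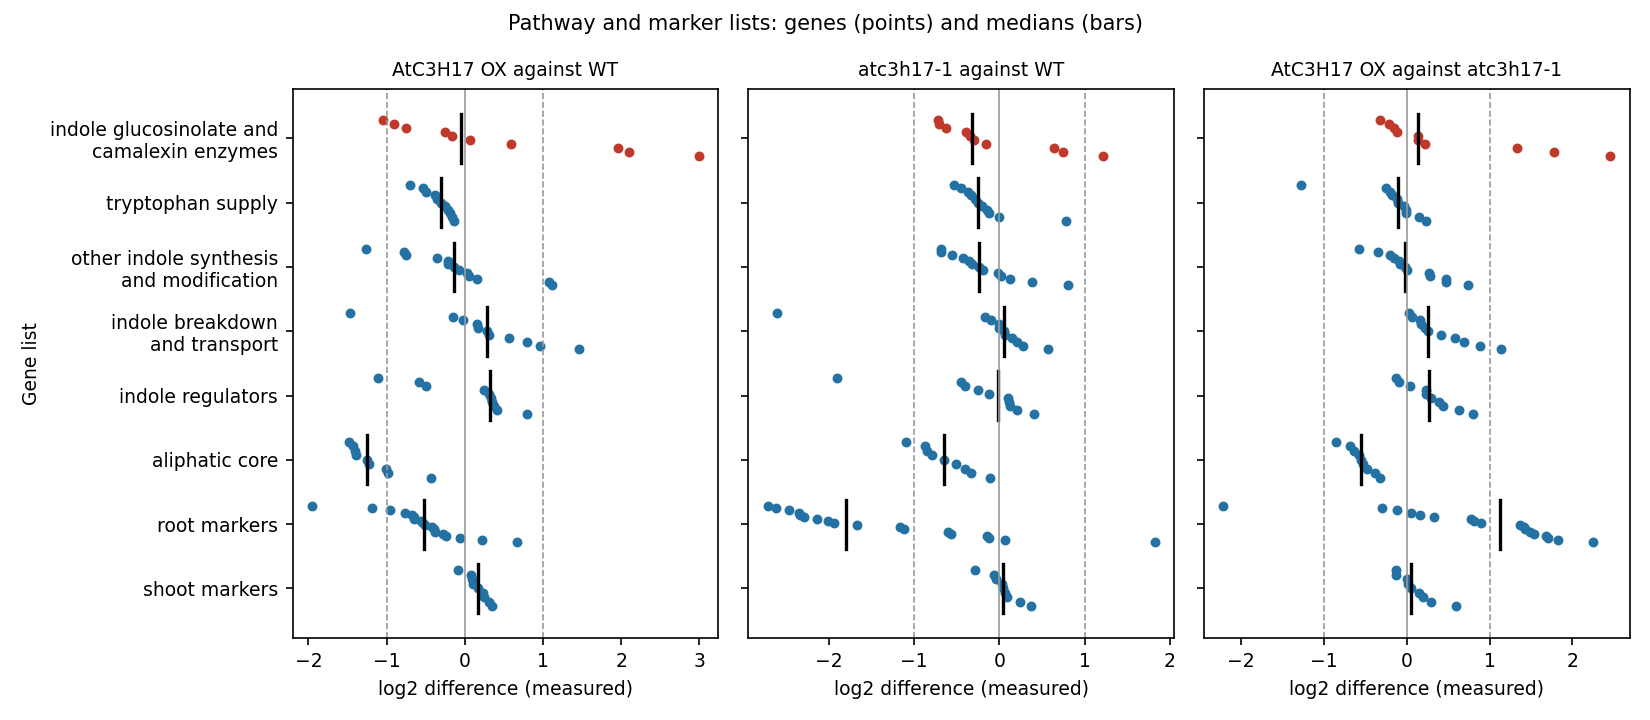
Measured log2 differences of the genes in each list (points) with the list's median (bar) for the 3 comparisons, with dashed lines at 2-fold. Genes not well above background in a compared group, such as CYP71A13, are also drawn at their measured difference and not at a bound. The indole glucosinolate and camalexin enzymes spread from -1.04 to 2.99 in AtC3H17 OX against WT, while the aliphatic core genes all lie below zero in every panel and root markers lie furthest down in atc3h17-1.

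Among 10 regulators, the median was 0.32 in AtC3H17 OX and -0.01 in atc3h17-1, with 7 and 5 of them above zero. The MYB factors that activate indole glucosinolate genes were below WT. MYB34 was at -0.58 ± 0.18 in AtC3H17 OX and -0.46 ± 0.20 in atc3h17-1, and MYB51 at -0.50 ± 0.18 and -0.41 ± 0.20. MYB122 was called lower in AtC3H17 OX at -1.11 ± 0.27 and was at least 2.97-fold lower in atc3h17-1. The camalexin regulators lay above WT in AtC3H17 OX without being called, WRKY33 at 0.41 ± 0.18 and ANAC042 at 0.80 ± 0.18, and were at 0.11 and 0.41 in atc3h17-1. The rest of the list also lay above WT in AtC3H17 OX without being called. MYC2, MYC3 and MYC4 were at 0.31, 0.38 and 0.24 there, and at -0.13, -0.25 and 0.21 in atc3h17-1. MPK3 and MPK6 were at 0.35 and 0.33, and at 0.12 and 0.10 in atc3h17-1.

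The 9 aliphatic core genes, which make the methionine-derived glucosinolates and share SUR1 with the indole route, set the indole enzymes in context. Of these, 7 were called lower in AtC3H17 OX (median -1.26), where 2.78% of all genes were, and 1 in atc3h17-1 (median -0.66), where 4.24% were. CYP79F2, which forms methionine-derived aldoximes, was at -1.48 in AtC3H17 OX and -1.10 in atc3h17-1. BCAT4 and MAM3, which act in methionine chain elongation, were at -1.40 each in AtC3H17 OX and at -0.87 and -0.85 in atc3h17-1. In AtC3H17 OX at the same step, CYP79F1 was at -1.26 beside -0.91 and -1.04 for CYP79B2 and CYP79B3. CYP83A1 was at -0.99 beside 0.07 for CYP83B1, and SOT18 at -1.43 beside -0.26 for SOT16. UGT74C1 was at -0.43 beside -0.16 for UGT74B1. In atc3h17-1 the order differed between steps. There CYP79F1 was at -0.41, above CYP79B2 and CYP79B3 at -0.70 and -0.72, and UGT74C1 at -0.11, above UGT74B1 at -0.30. CYP83A1 was at -0.51, below CYP83B1 at -0.16, and SOT18 at -0.79, below SOT16 at -0.39. Whether the indole and the aliphatic enzymes differed was not tested.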

How the data were processed

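The authors scanned the arrays and ran Agilent Feature Extraction (version 11.0.1.1 in the deposited files' headers), whose processed signal is a linear intensity after background subtraction. The statistics in those headers include fits of a spatial and a multiplicative detrending. Marks for outlier spots and for spots well above background were taken from the same deposited files. The series value table matched these intensities (median absolute log2 difference of at most 0.000928). Signals were put on the log2 scale and centred on the 75th percentile of their array. Leaving out outlier spots removed 70 probes. A probe had to be well above background throughout at least 1 group (32969 probes), and probes of a gene were averaged. RefSeq accessions placed 34348 of the 43603 probes at 1 locus of the TAIR10.1 table. The arrays are annotated on TAIR10, so no coordinates are given. limma 3.58.1 (R 4.3.3) was run as an alternative. Its 1 residual degree of freedom comes from the AtC3H17 OX array pair, and no p-value is reported. A run of limma on simulated data drew its noise from the same pair. That simulation held no spread between plants, so it cannot show how limma does on these samples. Python 3.11.15, numpy 2.4.6, pandas 2.3.3 and matplotlib 3.10.9 did the rest. Members and lists were chosen with earlier results of these data known. The rule for named genes took all members, AtC3H17, up to 4 genes of each other list with the largest absolute difference from WT in each line, and genes paired with a member by sequence or neighbouring position. Of the marker lists fewer are printed. TSB1, NIT3, PEN2, PEN3, WRKY33, RBCS1A, CYP79F1, CYP83A1 and the genes next to APK2 were added after their values were seen. So were UGT74C1, MYC2, MYC3, MYC4, MPK3, MPK6, PLT1, SCR, NRT2.1 and LRX1. Promoter and protein sequences were not used here. The number of arrays limits the precision.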

Additional observations from a re-analysis of the deposited data

How the results depend on the processing

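The counts of called genes and the medians over the 10 genes were recomputed with quantile normalization, another percentile, normexp, 2 other filters, the brightest probe, the surface trend removed, the series value table, 1 AtC3H17 OX array and a 1.5-fold line. The 2-fold count was 3 to 4 in AtC3H17 OX against WT, 1 in atc3h17-1 and 2 to 3 between the lines. Only the 1.5-fold line moved a count by over 1.5 times, to 7 in AtC3H17 OX and 6 in atc3h17-1. With 1 AtC3H17 OX array left out, the counts were 4 and 3, and the medians -0.05 to -0.04 against WT and 0.13 to 0.14 against atc3h17-1. Over all alternatives the median was -0.17 (normexp) to 0.01 (quantile normalization) in AtC3H17 OX against WT, with -0.16 under the filter that asks all 4 arrays to detect a probe, so it changed sign. It was -0.36 to -0.23 in atc3h17-1 against WT. limma was also run, but its spread comes from an array pair counted as 1 sample, so it is no check of these counts. CYP79B3 lost its call with the surface trend removed (-0.99), and CYP71A13 with normexp (1.06 against WT, 0.79 against atc3h17-1). PAD3 ranged from 2.68 to 3.22 in AtC3H17 OX and from 1.09 to 1.42 in atc3h17-1. A bound for CYP71A13, added after seeing the data, gave 2 calls between the lines. No paired analysis was possible because only AtC3H17 OX has numbered replicates. Signal near background limits CYP71A12 and CYP71A13.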

Other observations

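APK2 (AKN2 in the TAIR10.1 table) lies next to CYP79B2 in the order of loci and was at -1.26 in AtC3H17 OX against WT, while the genes flanking this pair, AT4G39930 and AT4G39952, were at 0.10 and 0.15. No explanation was tested.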
